A study of Arabidopsis thaliana with 8 samples.

Results

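The expansin superfamily of Arabidopsis thaliana was taken as the 36 loci named EXPA1 to EXPA26, EXPB1 to EXPB6, EXLA1 to EXLA3 and EXLB1, chosen by locus and not by any measured value. Of these, 35 were among the 28775 genes of the deposited table, and 28 had reads in both treatments, as did 24945 genes in all. EXPA19, annotated as a transcribed pseudogene in the RefSeq annotation of TAIR10.1, was not analysed here.

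Expansins are small secreted proteins that let plant cell walls extend by loosening the contacts between cellulose and the polysaccharides around it, without cutting either. Alpha-expansins (EXPA) act best in acid walls and are the main agents of acid growth, in which proton pumps of the plasma membrane lower the pH of the wall. Beta-expansins (EXPB) are related proteins that include the pollen allergens of grasses, and for the expansin-like A and B proteins (EXLA, EXLB) no wall-loosening activity has been shown. In flowers, cell expansion drives the late growth of petals and filaments and the growth of pollen tubes.

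The series set floral buds of mixed stages given dexamethasone (DEX) against mock buds in a search for genes that act downstream of RABBIT EARS (RBE), a SUPERMAN-family zinc-finger factor needed for petal development. DEX buds received 10 µM dexamethasone together with 0.1% ethanol and 0.015% Silwet for 4 h, and mock buds the ethanol and Silwet alone for the same time. All buds, the mock ones included, came from L er plants with the 35S:GR-RBE transgene, a fusion of RBE with the hormone-binding part of the glucocorticoid receptor under the 35S promoter, which is active in most tissues. Dexamethasone lets this fusion enter the nucleus. The labels give 2 biological replicates per treatment, each sequenced as 2 technical replicates, hence 4 DEX and 4 mock libraries. No plants without the transgene were among the groups, so a response to dexamethasone itself and one to RBE cannot be told apart.

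The deposited table held 1 value per gene and treatment, pooled over the libraries, so no difference below has a check across replicates and overlap between libraries could not be seen. Reads recovered from the deposited log-likelihood score summed to 102141163 in the DEX pool and 119057495 in the mock pool. Levels are given as RPKM, the recovered reads per kilobase of exonic length after scaling each pool to 1000000 reads assigned to genes, and RPM uses the same scaling without the length. Errors given as ± are standard errors of the log2 ratio of DEX over mock from read counting alone. Calls follow the authors' posterior probability: a gene counted as higher in DEX where the posterior for lower was under 0.05, and the reverse for a lower call. Counting error alone would put about 10% of unchanged genes past that limit. RBE itself had 21774 reads in DEX and 28895 in mock, with transgene and native gene counted together, which does not check the treatment labels. Whole pairs of reads were sought for the 13 members with reads in both pools and fewer than 1000 reads. For EXPA16, EXPA21, EXPA24 and EXPB1 no whole pair returned the deposited score, so the reads printed for these 4 are rounded estimates. For EXPA14, 4 pairs did. Reads of members with 1000 reads or more were not checked in this way and are rounded estimates too.

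Expansins were lower in DEX more often than higher. Of the 28 members with reads in both pools, 13 were called lower and 4 higher, against 20.8% of all genes called lower and 36.4% called higher. The log2 ratio was below 0 for 21 of the 28, and its median was -0.20, beside 0.05 for all genes. Summed over the family, expansins took 703 RPM in DEX and 933 in mock, giving a log2 ratio of -0.41. EXPA5, EXPA10 and EXPA8 had the lowest ratios, at 2.88-fold, 2.05-fold and 1.99-fold lower. Called members on the other side were EXPA24, EXPA25, EXPB1 and EXPB5. Counts of called genes run high at this depth, since 57.2% of all genes were called in one direction or the other. In bulk buds, fewer cells of a type and less RNA per cell cannot be told apart.

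Of the 28, 6 were called lower at 1.5-fold or more, against 2.91% of all genes, and 1, EXPA25, was called higher, against 4.45%. At 2-fold or more 2 were called lower, against 0.974%, and EXPA25 alone higher, against 1.74%. The share of higher calls at these limits thus rests on 1 gene of few reads. Of the 21 members with 200 reads or more, 13 were called lower and 3 higher, against 24.5% called lower and 41.8% called higher among all genes at that depth. At 1.5-fold or more 6 of them were called lower, or 28.6%, against 2.43% of all genes at that depth. Those 6 were EXPA3 (AT2G37640), EXPA5 (AT3G29030), EXPA8 (AT2G40610), EXPA10 (AT1G26770), EXPA20 (AT4G38210) and EXLA1 (AT3G45970). None of the 21 was called higher at 1.5-fold or more, against 2.49% of all genes. The log2 ratios of the 21 ran from -1.53 to 0.57 with an SD of 0.51, beside an SD of 0.28 for the 19983 genes with 200 reads or more and a median counting error of 0.04 for the members. Members thus differed from each other by far more than counting error, and the spread between biological replicates was not in the table.

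**Figure D1:**
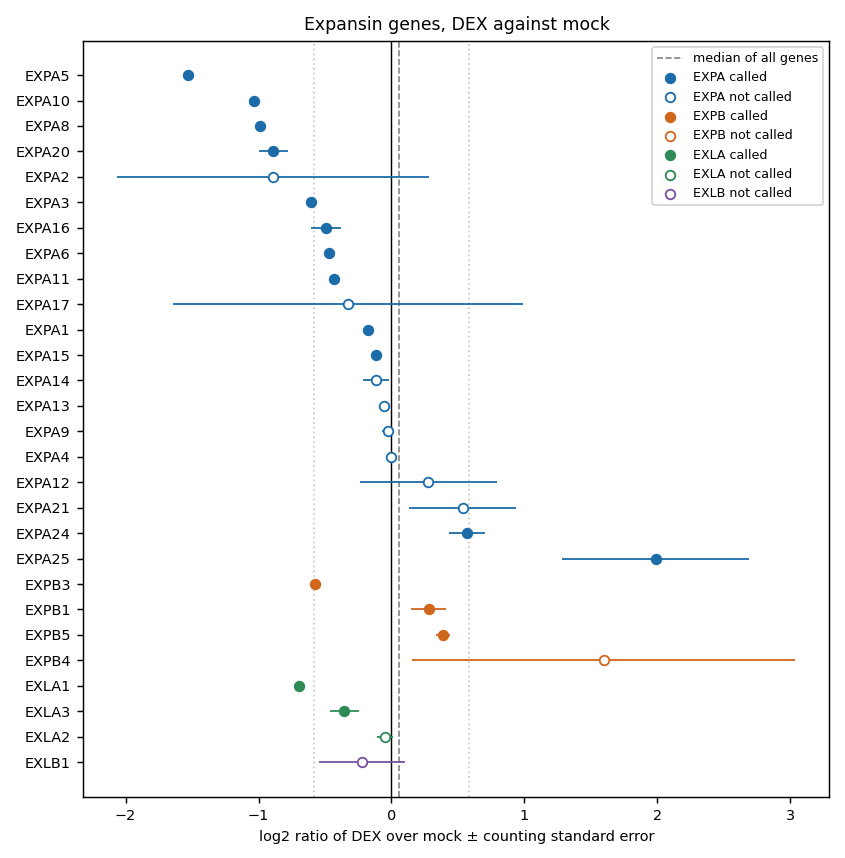
Log2 ratio of DEX over mock for the 28 expansins with reads in both pools, by subfamily, with bars for the counting standard error. Filled points are called members, open points are not called, dotted lines mark 1.5-fold and the dashed line the median of all genes at 0.05. Most EXPA points lie left of 0, with EXPA5 lowest at -1.53, while EXPB1 and EXPB5 lie to the right.

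EXPA5 had the lowest ratio of the family. It lies on chromosome 3 from 11011262 to 11013451, on the minus strand of TAIR10.1, and in Arabidopsis it is linked to growth promoted by brassinosteroids. Its recovered reads numbered 2068 in DEX and 6945 in mock, or 14.2 and 40.9 RPKM. The log2 ratio was -1.53 ± 0.04, and only 17 of the 19983 genes with 200 reads or more, EXPA5 included, were that low. Among the 35 expansins its rank by level was 11 in DEX and 7 in mock.

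EXPA10 and EXPA8 followed at close to 2-fold. EXPA10 (chromosome 1, 9259432 to 9261313, plus strand), known from leaf growth and the base of the pedicel, had 2403 reads in DEX and 5737 in mock. That was 14.97 RPKM in DEX and 30.7 in mock, for a log2 ratio of -1.03 ± 0.04. EXPA8 (chromosome 2, 16948791 to 16950705, minus strand) had 2466 reads in DEX and 5709 in mock, or 18.2 and 36.2 RPKM, and a log2 ratio of -0.99 ± 0.03. Both genes were thus lower by a similar factor from a similar level. The 3 genes together held 9.66% of all expansin reads in DEX and 16.6% in mock. Without them, a step taken after their values were seen, the other 32 members summed to 635 RPM in DEX and 778 in mock, giving a log2 ratio of -0.29.

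The windows of 250 bases before the annotated starts of these 3 genes, read from TAIR10.1 and given 5′ to 3′ on the strand of the gene, show what lies next to the members with the lowest ratios. EXPA1 is added as the nearest relative of EXPA10 with a much smaller ratio, and EXPB3 and EXPB1 as a pair of relatives that lay on opposite sides. Capitals mark 4 motifs searched on both strands: TGTCTC, a core bound by auxin response factors, GGNCCC, a core bound by TCP factors, CACGTG, the G-box, and CGTGNG, a core bound by brassinosteroid factors, which can share bases with CACGTG.
EXPA5 (chr3:11013452-11013701, minus strand): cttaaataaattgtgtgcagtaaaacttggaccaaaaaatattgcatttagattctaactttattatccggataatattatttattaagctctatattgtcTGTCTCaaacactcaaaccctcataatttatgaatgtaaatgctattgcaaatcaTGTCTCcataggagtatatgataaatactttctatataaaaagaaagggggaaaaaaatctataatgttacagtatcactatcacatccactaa
EXPA10 (chr1:9259182-9259431, plus strand): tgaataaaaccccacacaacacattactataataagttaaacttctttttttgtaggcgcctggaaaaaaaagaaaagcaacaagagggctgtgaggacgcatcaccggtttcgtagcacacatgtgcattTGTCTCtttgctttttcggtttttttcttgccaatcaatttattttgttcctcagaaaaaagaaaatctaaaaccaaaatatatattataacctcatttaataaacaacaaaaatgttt
EXPA8 (chr2:16950706-16950955, minus strand): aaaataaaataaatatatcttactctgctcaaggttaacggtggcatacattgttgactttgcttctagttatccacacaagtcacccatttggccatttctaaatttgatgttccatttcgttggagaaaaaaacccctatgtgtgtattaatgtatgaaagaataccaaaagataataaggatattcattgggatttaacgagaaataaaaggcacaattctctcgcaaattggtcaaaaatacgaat
EXPA1 (chr1:26141476-26141725, plus strand): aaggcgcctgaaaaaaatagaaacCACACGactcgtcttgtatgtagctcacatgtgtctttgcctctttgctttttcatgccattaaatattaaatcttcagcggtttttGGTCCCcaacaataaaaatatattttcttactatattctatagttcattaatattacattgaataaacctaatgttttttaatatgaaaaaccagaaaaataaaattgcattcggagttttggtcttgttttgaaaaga
EXPB3 (chr4:14002125-14002374, minus strand): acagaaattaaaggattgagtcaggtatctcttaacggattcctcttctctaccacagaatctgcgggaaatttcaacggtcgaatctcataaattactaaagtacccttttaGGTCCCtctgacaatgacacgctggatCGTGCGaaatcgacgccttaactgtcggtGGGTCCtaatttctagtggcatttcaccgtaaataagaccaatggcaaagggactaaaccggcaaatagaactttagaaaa
EXPB1 (chr2:8940583-8940832, plus strand): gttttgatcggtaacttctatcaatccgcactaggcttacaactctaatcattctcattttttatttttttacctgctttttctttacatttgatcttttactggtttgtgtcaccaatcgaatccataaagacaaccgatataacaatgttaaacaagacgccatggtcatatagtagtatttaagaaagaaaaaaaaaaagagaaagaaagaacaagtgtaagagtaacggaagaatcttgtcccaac

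The EXPA5 window held TGTCTC at 149 and 94 bases before the start and the EXPA10 window at 119 bases. The EXPA8 and EXPB1 windows held none of the 4 motifs. EXPB3 had GGNCCC at 137 and 81 bases and CGTGNG at 110 bases, and EXPA1 had GGNCCC at 139 and CGTGNG at 226. Over all 35 expansin windows, TGTCTC occurred in 4, or 11.4%, against 10.9% of the 27443 windows of nuclear protein-coding genes. It stood in 3 of the 13 members called lower and in 1 of the 22 others, EXPA7, which had 0 reads in both pools. These 22 include the 7 members without reads in both pools, which could not be called. GGNCCC occurred in 7 of the 35 expansin windows, or 20%, and in 7.35% of all windows. It stood in 3 of the 13 called lower and 4 of the 22 others. The 7 include EXPA23 and EXPA25, near-identical copies of each other. CGTGNG was in 22.9% of expansin windows and 12.5% of all, and CACGTG in 2.86% and 6.49%. TATAAA, searched but not marked, was in 57.1% of expansin windows and 47.3% of all. These are matches of letters, and no binding was measured here.

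By level, the family was led by EXPA6 (AT2G28950), EXPA15 (AT2G03090), EXPA1 (AT1G69530) and EXPA4 (AT2G39700). EXPA6 stood at 81.1 RPKM in DEX and 112 in mock, first in both pools. EXPA15 was at 63.4 RPKM in DEX and 68.9 in mock. EXPA1, which in Arabidopsis acts in the opening of stomata, was at 58.1 and 65.8. EXPA4, linked to pollen tube growth in Arabidopsis, was at 63.9 in DEX and 64.1 in mock, so EXPA4, EXPA15 and EXPA1 lay within a narrow range of levels in each pool. Together the 4 genes made up 57.7% of expansin reads in DEX and 51.0% in mock.

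These abundant genes changed less than the 3 described first. EXPA6 had 13171 reads in DEX and 21283 in mock, for a log2 ratio of -0.47 ± 0.02. EXPA1 had 9189 reads in DEX and 12126 in mock, giving a ratio of -0.18 ± 0.02, and EXPA15 had 9287 and 11763, for a ratio of -0.12 ± 0.02. All 3 were called lower, EXPA1 and EXPA15 by small amounts. EXPA4, with 9788 reads in DEX and 11456 in mock, had a ratio of -0.01 ± 0.02 and was not called. Setting the median ratio of all genes to 0 moves EXPA4 to -0.06 and makes it a lower call. Calls in that setting came from a normal approximation with the counting error, not from the authors' posterior. By these calls 18 of the 28 expansins were lower and 4 higher, against 29.5% of all genes called lower and 25.4% called higher.

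**Figure D2:**
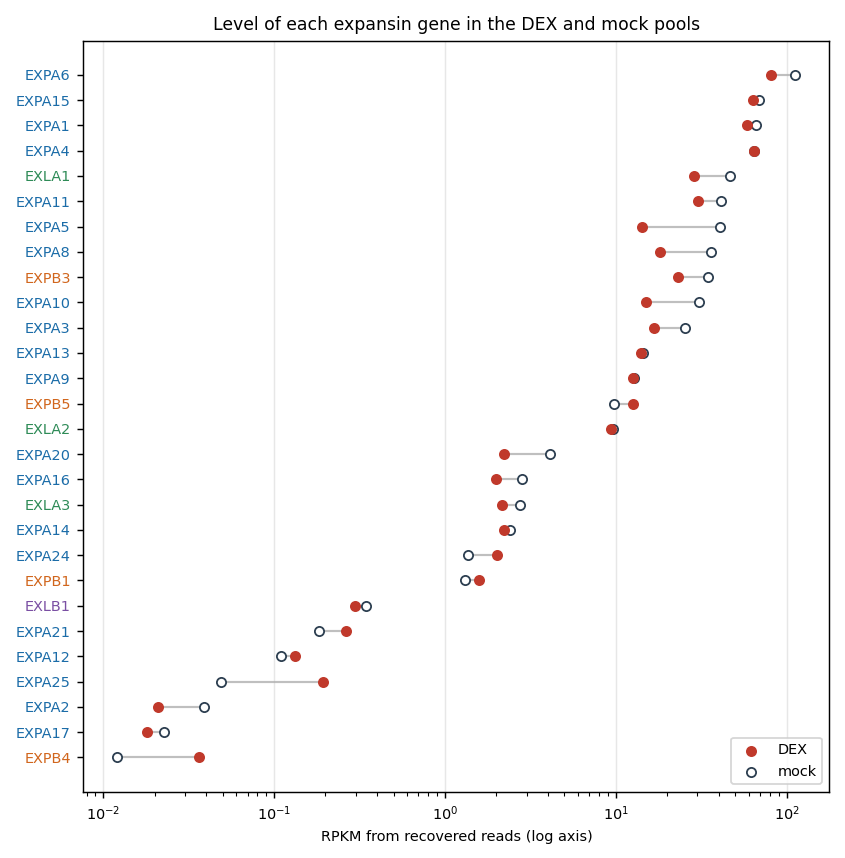
Level of the 28 expansins with reads in both pools, as RPKM from recovered reads on a log axis, with DEX as filled and mock as open points and label colours by subfamily. Members at the top of the order, from EXPA6 at 81.1 RPKM in DEX and 112 in mock, have DEX points left of or on the mock points, and the widest gap among them is that of EXPA5.

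The remaining alpha-expansins above 10 RPKM in mock were split between lower calls and no call. EXPA11 had 4172 reads in DEX and 6555 in mock, at 30.4 and 41.0 RPKM and a log2 ratio of -0.43 ± 0.03. EXPA3 had 3031 reads in DEX and 5376 in mock, giving a ratio of -0.61 ± 0.03. EXPA13, with 2055 reads in DEX and 2486 in mock, was at -0.05 ± 0.04, and EXPA9, with 1757 and 2082, was at -0.02 ± 0.05. EXPA11 and EXPA3 were called lower and EXPA13 and EXPA9 were not called. Of the 13 members at 10 RPKM or more in mock, 10 were called lower, 0 higher and 3 not called. Among all genes with 200 reads or more, a cut by reads and not by level, 24.5% were lower and 41.8% higher. A band cut on the mock level alone favours genes lower in DEX. EXPB5, called higher, fell just below it, at 12.7 RPKM in DEX and 9.69 in mock.

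At lower levels, EXPA20 and EXPA16 were called lower and EXPA14 was not called. EXPA20 had 259 reads in DEX and 558 in mock, at 2.22 and 4.11 RPKM, for a log2 ratio of -0.89 ± 0.11. It shares 1061 of its 1218 bases with AT4G38215 on the other strand, which had 14 reads in DEX and 13 in mock. EXPA16 had 256 reads in DEX and 419 in mock, giving a ratio of -0.49 ± 0.11. For EXPA14, known from lateral root formation, 387 reads in DEX and 488 in mock gave -0.12 ± 0.10. Among the 8 members between 1 and 10 RPKM in mock, 3 were called lower, 3 higher and 2 not called, beside the same 24.5% and 41.8%.

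Beta-expansins went both ways. EXPB3 (AT4G28250, chromosome 4, 13999625 to 14002124, minus strand) had 4947 reads in DEX and 8575 in mock, at 23.2 and 34.5 RPKM, and was called lower at -0.57 ± 0.03. EXPB5 (AT3G60570, chromosome 3, 22391153 to 22392708, plus strand), linked to pollen tube growth in Arabidopsis, had 1499 reads in DEX and 1338 in mock, at 12.7 and 9.69 RPKM. Its log2 ratio was 0.39 ± 0.05, and it was called higher. EXPB1 (AT2G20750) had 248 reads in DEX and 238 in mock, for a ratio of 0.28 ± 0.13. The posterior that mock was higher was 0.016 for EXPB1 in the authors' deposited table, so a limit of 0.01 ends that call. At 0.01, 13 expansins were called lower and 3 higher, against 17.1% and 29.1% of all genes. The subfamily median over 4 members was 0.33, but the summed reads of EXPB, which are mostly those of EXPB3, gave -0.38.

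Expansin-like A genes were lower or not called. EXLA1 had 3099 reads in DEX and 5863 in mock, at 28.5 and 46.2 RPKM, giving a log2 ratio of -0.70 ± 0.03. It overlaps the histone gene HTB9 on the other strand by 22 bases, and HTB9 itself was at 0.20 ± 0.02. EXLA3, its tandem neighbour on chromosome 3, had 302 reads in DEX and 450 in mock, for a ratio of -0.35 ± 0.11. EXLA2, with 1073 reads in DEX and 1294 in mock, was at -0.05 ± 0.06 and not called. EXLB1, the only member of its subfamily, had 34 reads in DEX and 46 in mock and was not called at -0.22 ± 0.33.

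**Figure D3:**
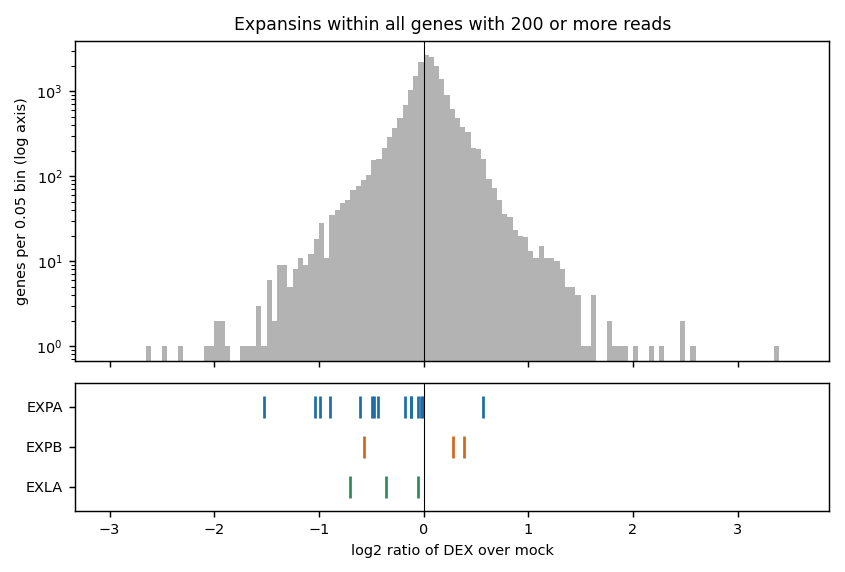
Log2 ratio of DEX over mock for the 19983 genes with 200 reads or more, as a histogram with a log count axis, above marks for the 21 expansins at that depth by subfamily. The EXPA marks extend to -1.53, in the thin left tail of the histogram, and no expansin mark lies beyond 0.57 on the right.

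Close relatives differed in their log2 ratios by more than counting error. Pairs of members that were each other's nearest relative by coding sequence were compared where both had 200 reads or more, which left 5 pairs, and each difference is the first gene minus the second. EXPA1 and EXPA10, at 78.0% coding identity, differed by 0.85 ± 0.04 in log2 ratio, EXPA10 being lower. EXPA3 and EXPA9, at 73.7%, differed by -0.58 ± 0.06, and EXPA4 and EXPA16, at 81.1%, by 0.49 ± 0.12. EXPB1 and EXPB3, at 76.7%, differed by 0.85 ± 0.13 and lay on opposite sides of 0. EXLA1 and EXLA3, at 86.6% and side by side on the chromosome, differed by -0.34 ± 0.11. These errors again cover counting only. Over the 21 members with 200 reads or more, the SD of the log2 ratio was 0.51. Whether relatives lay closer to each other than other members do was not tested. For scale, the median coding identity between all pairs of EXPA genes was 56.3%, and between EXPA and EXPB genes 42.9%.

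The tandem cluster of EXPA21 to EXPA26 on chromosome 5, within 14.4 kb from 15726243 to 15740605, held the 2 alpha-expansins called higher. Only EXPA24 among its genes had 200 reads or more. EXPA12, outside the cluster and also weakly expressed, lay above 0 too, at 0.28 ± 0.52, and was not called. All 6 genes of the cluster were weakly expressed, with 308 reads in DEX and 230 in mock in total, giving a log2 ratio of 0.65. Most of these came from EXPA24 (AT5G39310), with 255 reads in DEX and 200 in mock, at 2.03 and 1.37 RPKM, and a log2 ratio of 0.57 ± 0.14. EXPA24 was called higher. EXPA25 (AT5G39300) had 19 reads in DEX and 5 in mock, for a ratio of 1.99 ± 0.70, and was called higher too. EXPA21, with 29 reads in DEX and 23 in mock, was at 0.54 ± 0.40 and not called. It shares 964 of its 1216 bases with AT5G39250 on the other strand, which had 993 reads in DEX and 1192 in mock.

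Reads of the rest of this cluster were at the limit of detection. EXPA22 had 4 reads in DEX and 0 in mock, EXPA23 had 2 and 0, and EXPA26 had 0 and 1. EXPA22 and EXPA26 share 937 aligned bases at 97.1% identity, and EXPA23 and EXPA25 share 901 at 96.8%. Reads of these 4 genes are therefore uncertain, the call of EXPA25 included. Outside the cluster, 17 alpha-expansins had reads in both pools, with a median of -0.43. Of these, 10 were called lower and 0 higher, against 20.8% and 36.4% of all genes. EXPA24 and EXPA25 were the only alpha-expansins called higher, so the 0 outside follows from the split. Taking out the cluster also lowers the median. In the cluster, 2 of the 3 genes with reads in both pools were called higher. Over all 20 alpha-expansins the median was -0.25.

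**Figure D4:**
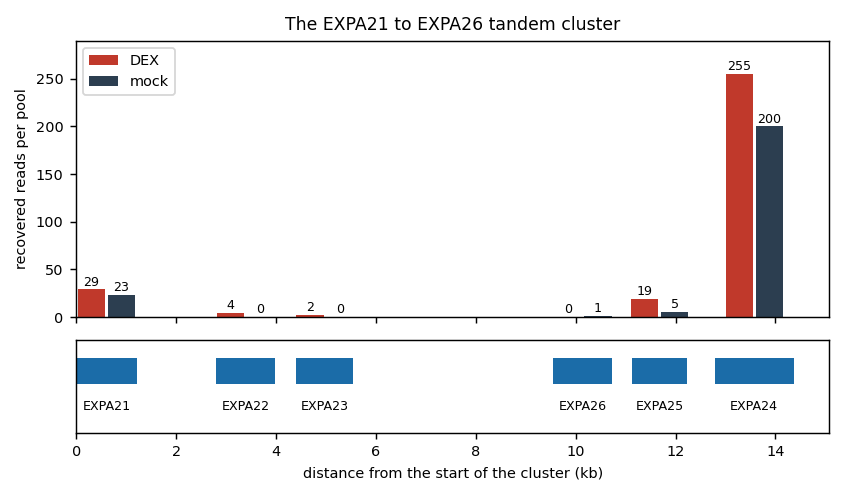
Recovered reads of the EXPA21 to EXPA26 genes in the DEX and mock pools, above a map of the genes by distance in kb from the start of the cluster. EXPA24, with 255 reads in DEX and 200 in mock, holds most of the reads, and the EXPA22, EXPA23 and EXPA26 bars are at 4 reads or fewer.

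In all, 14 of the 35 members were under 1 RPKM in mock. EXPA7, a root hair expansin, had 0 reads in both pools, as did EXPB2. A count of 0 allows up to 0.0294 RPM in DEX and 0.0252 in mock, for counting error only. EXPA18, the other root hair expansin, had 0 reads in DEX and 1 in mock. EXPA17, known from lateral roots, had 2 reads in DEX and 3 in mock, and EXPA2, known from germinating seeds, had 2 and 5. EXPA12 had 16 reads in DEX and 15 in mock, EXPB4 had 4 and 1, and EXPB6 had 1 and 0. Of the 14 only EXPA25 was called, and differences in the others were not detectable at this depth.

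Genes that act with expansins in acid growth did not share one direction. Of the 11 plasma membrane proton pump genes AHA1 to AHA11, which acidify the wall, 9 were called higher, 1 lower and 1 not called, at a median log2 ratio of 0.18. Among all genes with 200 reads or more, which all of these pumps had, 41.8% were called higher and 24.5% lower. AHA10 was at 0.63 ± 0.08, AHA8 at 0.50 ± 0.01, AHA7 at 0.44 ± 0.05 and AHA9 at 0.23 ± 0.01, of which AHA8 and AHA9 are known as pollen pumps and AHA10 from the seed coat. The 9 PP2C.D phosphatase genes belong to a group in which some members switch such pumps off. Of these 9, 6 were called higher and 3 lower, at a median of 0.19, to be read against the same 41.8% and 24.5%. Among them PP2C.D7 was at 0.50 ± 0.05, PP2C.D8 at 0.32 ± 0.03, PP2C.D1 at -0.45 ± 0.13 and PP2C.D5 at -0.27 ± 0.02. AHA7, AHA8, AHA9, PP2C.D1 and PP2C.D8 overlap other annotated genes.

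SAUR genes of the SAUR19 and SAUR63 groups, small auxin-induced genes whose products hold the PP2C.D phosphatases back, were lower or not called. Lower calls numbered 7 among the 14 genes and higher calls 0, against 20.8% and 36.4% of all genes. The list median was -0.69. Reads of these genes were few, 570 in DEX and 1120 in mock over the whole list. SAUR66 (AT1G29500) led with 206 reads in DEX and 473 in mock, giving a log2 ratio of -0.98 ± 0.12, and SAUR67 (AT1G29510, which RefSeq lists as SAUR68) was at -0.64 ± 0.21 with 75 and 137. SAUR67 and SAUR63 (AT1G29440) share near-identical sequence, so their reads are uncertain.

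**Figure D5:**
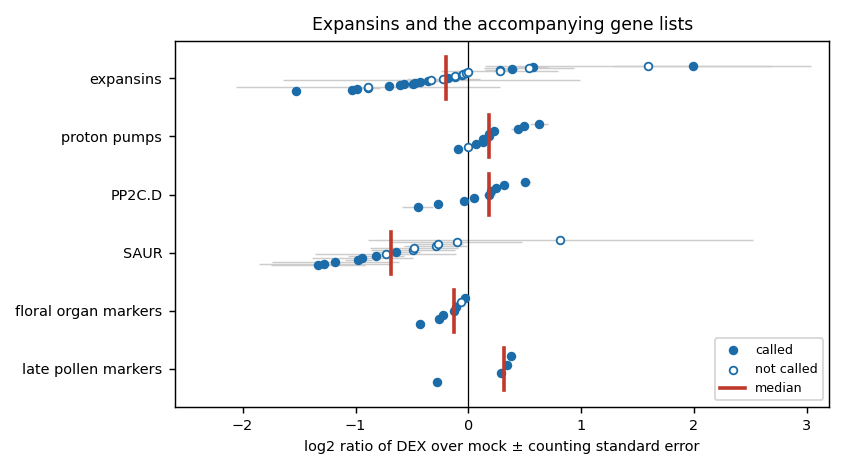
Log2 ratio of DEX over mock, with counting standard errors, for the expansins and 5 accompanying gene lists, with filled points for called genes, open points for genes not called and a red bar at each list's median. The expansin median is -0.20, that of the SAUR genes -0.69, that of the floral organ markers -0.13, and those of the proton pumps, PP2C.D and late pollen markers lie right of 0.

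Markers of the tissues in the buds also moved between the pools. All 7 floral organ markers were present, and 6 were called lower in DEX and 0 higher, against 24.5% and 41.8% of all genes at 200 reads or more, at a median of -0.13 and a summed level of 464 RPKM in DEX and 526 in mock. SEP3 was at -0.43 ± 0.02, CRC at -0.26 ± 0.04, AP3 at -0.23 ± 0.02 and AP1 at -0.13 ± 0.02. Of the 4 late pollen markers, 3 were called higher and 1 lower, against 41.8% and 24.5%, at a median of 0.32 and a summed level of 775 RPKM in DEX and 624 in mock. VGD1 at 0.37 ± 0.01, AGP11 at 0.35 ± 0.02 and AGP6 at 0.29 ± 0.01 were close to EXPB5 at 0.39, whereas EXPA4, also a pollen tube gene, was at -0.01 and PPME1, which has a near-identical copy, at -0.28 ± 0.03.

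Tapetum markers had 3 of 4 called higher and 1 lower, against 41.8% and 24.5%, at a summed level of 479 RPKM in DEX and 479 in mock. MS1 was at 0.57 ± 0.05, ACOS5 at 0.16 ± 0.01, A9 at -0.11 ± 0.02 and AMS at 0.07 ± 0.02. Of the 6 root hair markers, RSL4 and RSL2 were at 0 reads in both pools. The list summed to 7.29 RPKM in DEX and 6.22 in mock, almost all from COBL9, which was called higher at 0.24 ± 0.05. The lowest floral organ marker, SEP3 at -0.43, lay above 9 of the 21 expansins with 200 reads or more. This comparison does not measure the share of the cells that express those expansins. The part of these marker differences in the expansin ratios was not tested.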

How the data were processed

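Messenger RNA of floral buds was sequenced on an Illumina Genome Analyzer after poly-A selection, per the labels' protocols. The submitters' processing notes name TopHat 1.2.0, HTSeq 0.4.5p6 and TAIR10 but give none of them a role, and none of the sources gives the strand setting. The authors deposited 1 table in the output format of LOX, per the file headers, with the libraries of each treatment pooled. For genes with reads in both treatments, each deposited level is a ratio, with the lower treatment at 1. Where only 1 treatment had reads, that treatment is at 1 and the other at 0. The table also holds the deposited posterior probability of each direction, from 0 to 1, and a deposited log-likelihood score.

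Reads were recovered by taking the score as N ln(N/T) - N summed over both treatments, where N is the reads of the gene and T the pool total. This form is stated in none of the sources, and all reads, RPKM and counting errors depend on it. Scores of the 908 genes with reads in 1 treatment gave whole reads within 0.05 for 100% of them. Of 8294 genes with up to 1000 reads in both treatments, the recovered total was whole within 0.1 for 99.98%. Reads per pool also use the rounded deposited ratio. For 9 of the 13 expansins with fewer than 1000 reads, the rounded pair returned the deposited score, and no whole pair did for EXPA16, EXPA21, EXPA24 and EXPB1. Calls on the ratios as deposited used the authors' posterior. Across 8089 genes it followed counting error with a slope of 1.00, so it carried no visible term for spread between biological replicates. With the median of all ratios set to 0, calls used a normal approximation from the shifted ratio and its counting error. The recovery and calls were also run on simulated reads. Those scores were built with the same assumed form and counting error only, so that run could not test the form.

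Members, gene lists, motifs and settings were chosen with earlier results of these data known. Expansins with 200 reads or more, and up to 4 called genes per list at that depth with the largest ratios, are given with values. Exonic lengths, positions, overlaps and upstream windows were read from RefSeq for TAIR10.1, which matched 28009 listed loci. The table itself has no coordinates. A blastn 2.17.0 search listed near-identical copies (95% identity over at least 100 bases), and coding sequences were aligned with MAFFT 7.526. Scripts ran on Python 3.11.15 (SciPy 1.17.1, pandas 2.3.3, Matplotlib 3.10.9, NumPy 2.4.6).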

Additional observations from a re-analysis of the deposited data

How the results depend on the processing

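No paired analysis was possible because the table gives 1 value per gene and treatment, and for that reason no replicate could be left out. The 13 lower and 4 higher calls became 6 and 1 at 1.5-fold or more and 2 and 1 at 2-fold or more, limits that leave fewer genes by construction. Restricted to members with 200 reads or more, the median log2 ratio was -0.35 for all expansins and -0.43 for EXPA. The ratio of summed reads was -0.41 for all expansins, -0.40 for EXPA, -0.54 for EXLA and -0.38 for EXPB, against an EXPB median of 0.33. Without members that overlap another gene, 11 were called lower and 4 higher, beside 20.8% and 36.4% of all genes with overlaps kept. The lower calls lost were EXPA20 and EXLA1, both among the 6 at 1.5-fold or more. In that setting the EXLA median was -0.20, from 2 genes. The other settings kept each median on its side of 0, from -0.25 to -0.15 for all expansins, -0.33 to -0.18 for EXPA, 0.28 to 0.39 for EXPB, -0.41 to -0.34 for EXLA and -0.27 to -0.21 for EXLB. Setting the median of all ratios to 0 lowers every log2 ratio by 0.05. Calls then came from a normal approximation with the counting error. By these, 18 members were called lower and 4 higher, against 29.5% and 25.4% of all genes. The 5 added calls were EXPA4, EXPA9, EXPA13, EXPA14 and EXLA2. A posterior limit of 0.01 removed only EXPB1 among the 28, and totals without the 1% most abundant genes changed no call. Near-identical copies affect EXPA25 alone among called members. Members under 200 reads are limited by counting error.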
